A study of Homo sapiens with 9 samples.

Results

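Microtubules are polymers of alpha and beta tubulin dimers, and human cells draw each partner from a family of closely related genes, the isotypes. The measurements described here are the FPKM values (sequenced fragments relative to transcript length and library size) of 10 isotype genes, chosen by gene symbol from the 22295 entries of the expression table. They comprise 4 alpha isotypes (TUBA1A, TUBA1B, TUBA1C and TUBA4A) and 6 beta isotypes (TUBB, TUBB2A, TUBB2B, TUBB3, TUBB4B and TUBB6). All 10 symbols were found in the table, and all 10 passed the filter of a mean of at least 0.1 FPKM over the libraries that left 15551 entries for testing.

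The cells were U251, an established human glioblastoma line, and RNA of cells infected with lentivirus gave 9 libraries, 3 in each of 3 groups. The group sh-Luci-3d carried a short hairpin RNA against luciferase, a sequence the cells lack, and was collected 3 days after infection. The groups sh-Ptbp1-3d and sh-Ptbp1-7d carried a hairpin against PTBP1, an RNA-binding protein that represses neuronal splicing, and were collected after 3 and 7 days. Per the study's methods for reprogramming, infected cells were moved 2 days after infection into a neuronal induction medium with N2, B27, forskolin and dorsomorphin, so sh-Ptbp1-7d was also in this medium for longer. No sh-Luci library of 7 days was analysed here, and in each comparison with sh-Ptbp1-7d the knockdown, the additional days and the additional time in medium cannot be told apart. Several hairpin viruses against PTBP1 were packaged in the study, and 1 of them was kept after the first tests, in a vector that also marks infected cells with a red fluorescent protein. The labels do not say whether the 3 libraries of a group came from separate infections, so p-values measure the spread between these libraries, which may be technical.

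The targeted gene was lower in both knockdown groups. PTBP1 was at 116 ± 7.58 FPKM (mean ± SD, n = 3) in sh-Luci-3d, 63.9 ± 2.67 in sh-Ptbp1-3d and 50.5 ± 0.645 in sh-Ptbp1-7d, with no overlap between groups. Its log2 fold change at 3 days was -0.85 (adjusted p 0.00314, limma across all entries). VIM, the intermediate filament vimentin and a marker of the glioma line, averaged 4168, 4381 and 1169 FPKM, control first and 7 days last. The mature astrocyte markers AQP4 and ALDH1L1 were at or near 0 in every library. Of 8 listed astroglial and glioma line markers 6 were tested. From 3 to 7 days of knockdown 2 fell past the FDR of 0.01, 1 rose and 3 did not pass. The log2 fold changes were -1.91 for VIM (adjusted p 9.79e-08, limma) and -1.41 for CD44 (adjusted p 1.12e-06). S100B rose from a mean of 0.115 to 0.797 FPKM, a log2 fold change of 2.08 (adjusted p 0.00202). GFAP, which did not pass, averaged 0.347, 0.586 and 0.454 FPKM by group. The summed FPKM of a library ranged from 367412 to 404922. No steps of whole reads were found in the FPKM values, and depth is unknown.

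The library sh-Ptbp1-3d replicate 3 stood apart. Of 14 listed neuronal markers and stathmins, 8 were highest there among the 9 libraries, and 6 (DCX, ELAVL3, ELAVL4, GAP43, STMN2 and STMN4) exceeded the next library by more than 3-fold. STMN2, a tubulin-binding protein of growing axons, read 11.5 FPKM in this library and was listed at 0 in the other 8. DCX, a microtubule-associated protein of migrating neurons, read 2.14 FPKM there and at most 0.0346 elsewhere. Of the isotypes, TUBA1A, TUBB2A, TUBB2B and TUBB6 were highest there within their group. The other 6 (TUBA1B, TUBA1C, TUBA4A, TUBB, TUBB3 and TUBB4B) were lowest there within it. Without this library the log2 fold changes from 3 to 7 days were -1.24 for TUBA1A (adjusted p 7.88e-05, limma) and -1.34 for TUBB6 (adjusted p 3.28e-05), and TUBB2A and TUBB2B are given with and without it below.

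Tubulin genes divide by where they are used. TUBB, TUBA1B, TUBA1C, TUBB4B and TUBB6 are transcribed in many cell types and supply the spindle of dividing cells. TUBA1A, TUBA4A, TUBB2A, TUBB2B and TUBB3 are enriched in neurons, and TUBB3 is the antigen of the TUJ1 antibody, widely used as an early neuronal marker. The proteins differ most at their carboxy-terminal tails, where tyrosine and glutamate residues are added and removed, and the cell controls the messages by autoregulation: TTC5 recognises the amino-terminal residues of a nascent tubulin chain on the ribosome and brings about decay of its mRNA when free dimers are plentiful.

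The start of each coding sequence is shown because it encodes the residues that TTC5 reads. The first 30 coding bases, from GRCh38 and the GENCODE v29 annotation, follow with the first 12 in capitals, the first 4 codons. TUBA1B and TUBA1C were identical to TUBA1A over all 30 bases.
TUBA1A: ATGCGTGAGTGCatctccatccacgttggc
TUBA4A: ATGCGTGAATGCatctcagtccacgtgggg
TUBB: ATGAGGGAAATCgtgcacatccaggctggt
TUBB2A: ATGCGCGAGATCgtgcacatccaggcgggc
TUBB2B: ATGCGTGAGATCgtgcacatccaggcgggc
TUBB3: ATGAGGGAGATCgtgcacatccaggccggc
TUBB4B: ATGAGGGAAATCgtgcacttgcaggccggg
TUBB6: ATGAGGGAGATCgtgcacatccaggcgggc
The 30 bases of TUBB3 lie at chr16:89923402-89923431, on the plus strand, and those of TUBB at chr6:30720507-30720536. In the 4 alpha genes the start codon stands alone in the first coding exon, and in the 6 beta genes the 30 bases lie in 1 exon.

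The last 60 coding bases of the beta genes are shown because they encode the tails by which the beta isotypes, and the neuronal TUBB3 among them, are told apart. The stop codon is in capitals.
TUBB: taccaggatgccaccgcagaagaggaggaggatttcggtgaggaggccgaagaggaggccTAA
TUBB2A: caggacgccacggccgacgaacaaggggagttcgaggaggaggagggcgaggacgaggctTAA
TUBB2B: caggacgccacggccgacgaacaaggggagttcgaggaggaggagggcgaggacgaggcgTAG
TUBB3: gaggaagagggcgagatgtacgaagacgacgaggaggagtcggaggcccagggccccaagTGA
TUBB4B: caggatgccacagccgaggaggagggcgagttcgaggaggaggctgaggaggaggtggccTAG
TUBB6: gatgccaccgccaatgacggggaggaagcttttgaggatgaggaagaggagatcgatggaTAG
The tails of TUBB2A and TUBB2B are the same up to the last coding base, whereas TUBB3 and TUBB6 have tails of their own. The printed bases of TUBB3 lie at chr16:89935742-89935804 and those of TUBB6 at chr18:12326068-12326130, both on the plus strand, and those of TUBB2A at chr6:3153863-3153925 and TUBB2B at chr6:3224751-3224813 on the minus strand.

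The isotypes are close enough in sequence for reads to be shared. Coding sequences of 2 beta isotypes were 81.3 to 98.1% identical over 15 pairs, those of 2 alpha isotypes 85.0 to 97.3% over 6 pairs, and those of an alpha and a beta isotype 54.7 to 56.8% over 24 pairs. The closest pair was TUBB2A with TUBB2B. Of all 100-base windows in the main transcript, 54.4% in TUBB2A and 42.4% in TUBB2B occurred without a mismatch in another isotype of the set, against 32.1% in TUBA1B, 18.3% in TUBA1A, 11.5% in TUBA1C, 5.15% in TUBB3, 2.86% in TUBB4B and 0% in TUBB, TUBA4A and TUBB6. The levels of TUBB2A and TUBB2B, and of the TUBA1 genes, are therefore uncertain relative to each other, and their sums are given below, though a sum of FPKM still depends on which gene, with its length, a shared read was given to. TUBB3 also shared 89.0% of its windows with the readthrough gene AC092143.1, which was listed at 0 in all 9 libraries.

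In GRCh38 with GENCODE v29, the TUBA1 genes lie together on chromosome 12, TUBA1B at chr12:49127782-49131397 and TUBA1A at chr12:49184796-49189324 on the minus strand and TUBA1C at chr12:49188736-49274603 on the plus strand, where the annotated spans of TUBA1A and TUBA1C overlap. TUBA4A is at chr2:219249711-219278170 on the minus strand. TUBB2A (chr6:3153669-3157526) and TUBB2B (chr6:3224261-3231730) are neighbours on the minus strand of chromosome 6, and TUBB (chr6:30720201-30725426) is on its plus strand. TUBB3 is at chr16:89921392-89938761, TUBB4B at chr9:137241213-137243707 and TUBB6 at chr18:12307669-12344320, each on the plus strand. A locus assembled by the authors at chr6:3228541-3229874, on the plus strand, overlaps TUBB2B. Main transcripts of all 10 genes have 4 exons. Whether the authors' counting used strand is not given in the sources used here, so reads of overlapping genes on opposite strands cannot be told apart.

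The first comparison asked how the isotypes changed between 3 and 7 days of PTBP1 knockdown. Every isotype fell. The summed FPKM of the 10 genes was 4404, 4323 and 4194 in the libraries of sh-Ptbp1-3d, and it was 1777, 1798 and 2114 in those of sh-Ptbp1-7d, so the later mean was 44.0% of the earlier one. All 10 were past the FDR of 0.01 (limma, Benjamini-Hochberg over the 15551 entries, adjusted p from 6.91e-07 to 0.00332), in a comparison where 15.5% of all entries tested were lower at that threshold. Of these, 8 also fell more than 2-fold, against 5.9% of all entries. Under quantile normalization 4 were past both thresholds, in a fit whose share of all entries was not counted. On the deposited scale, each library of 7 days was below each of 3 days for all 10, against 27% of all entries with lower libraries. The median log2 fold change of the 10 was -1.23, beside 0.09 for all entries. In bulk RNA, fewer cells that express a gene and less of its RNA in each cell cannot be told apart.

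**Figure D1:**
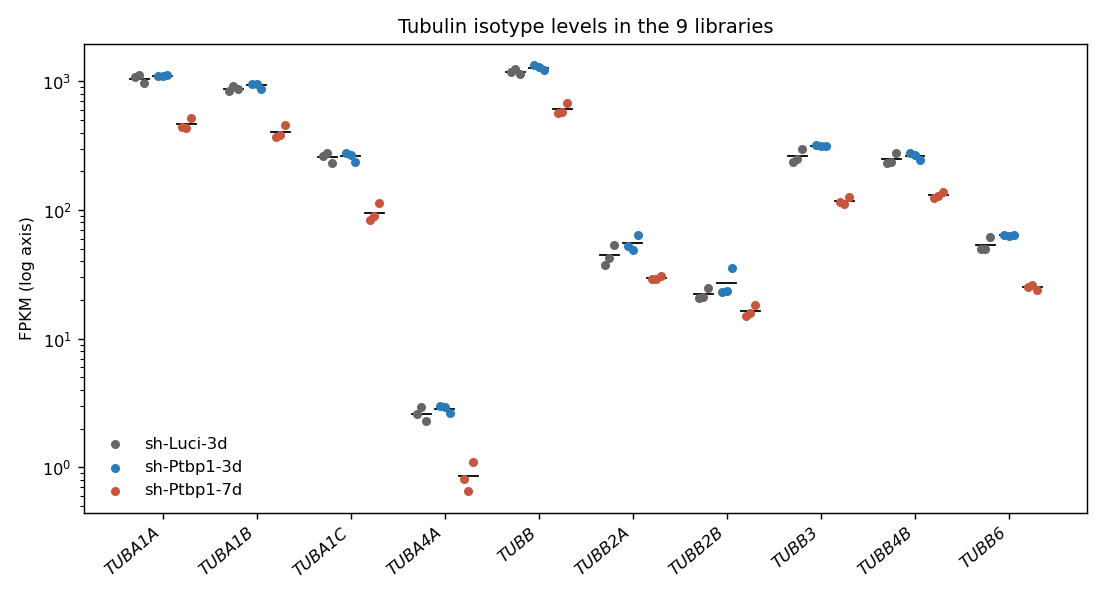
FPKM of each isotype (log axis) in the 9 libraries, by group; points are libraries and black lines group means (n = 3). For every isotype the 3 sh-Ptbp1-7d libraries lie below all 6 collected at 3 days.

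Among the alpha isotypes, TUBA1A, the main alpha tubulin of developing neurons, was the most abundant. It read 1094, 1095 and 1129 FPKM in sh-Ptbp1-3d and 443, 432 and 520 FPKM in sh-Ptbp1-7d. The log2 fold change was -1.26 (SE 0.097, adjusted p 2.25e-06). TUBA1B, a ubiquitous alpha tubulin, read 957, 955 and 879 FPKM and then 371, 383 and 459 FPKM. Its log2 fold change was -1.21 (SE 0.097, adjusted p 2.99e-06), within the standard error of that of TUBA1A.

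TUBA1C, an alpha tubulin of dividing cells, fell further. It read 278, 270 and 235 FPKM in sh-Ptbp1-3d and 83.7, 89.4 and 112 FPKM in sh-Ptbp1-7d, a log2 fold change of -1.46 (SE 0.12, adjusted p 3.51e-06). TUBA4A, which in adults is abundant in neurons and platelets, was the rarest of the 10. Its values were 2.99, 2.96 and 2.65 FPKM at 3 days and 0.807, 0.652 and 1.10 FPKM at 7 days, which gave a log2 fold change of -1.66 (SE 0.18, adjusted p 3.07e-05) on the log2(FPKM + 0.1) scale. This was the lowest of the 10, but with a pseudocount of 1 it was -1.07 and TUBA1C, at -1.45, was the lowest. The 3 TUBA1 genes together went from 2297 ± 47.0 FPKM (SD, n = 3) to 964 ± 110 FPKM.

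TUBB was the most abundant beta isotype and the most abundant of the 10 in each group. It is the beta tubulin of most dividing cells. It read 1333, 1284 and 1225 FPKM in sh-Ptbp1-3d and 568, 583 and 683 FPKM in sh-Ptbp1-7d, with a log2 fold change of -1.07 (SE 0.095, adjusted p 5.98e-06). TUBB4B, another broadly used beta tubulin that also builds cilia, read 278, 267 and 245 FPKM and then 125, 128 and 139 FPKM. Its log2 fold change of -1.01 (SE 0.092, adjusted p 7.56e-06) lay just past the 2-fold threshold. TUBB6, a divergent beta tubulin whose overexpression destabilises microtubules, read 63.9, 62.8 and 64.2 FPKM and then 25.4, 26.0 and 23.8 FPKM. It fell by 1.34 on the log2 scale (SE 0.091, adjusted p 8.41e-07), and its libraries were the closest together of the broadly expressed genes within both of these groups.

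TUBB3 fell as well. It read 322, 314 and 314 FPKM in sh-Ptbp1-3d and 116, 112 and 127 FPKM in sh-Ptbp1-7d, and the 7-day mean was 37.3% of the 3-day mean. The log2 fold change was -1.42 (SE 0.093, 95% interval -1.63 to -1.22, adjusted p 6.91e-07), the lowest adjusted p of the 10. The table holds RNA only, and protein was not measured in it.

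TUBB2A and TUBB2B, the closely related beta tubulins of neurons, fell least on the deposited scale, whereas under quantile normalization TUBB (-0.69) and TUBA1A (-0.71) did. TUBB2A read 52.2, 48.8 and 64.1 FPKM in sh-Ptbp1-3d and 29.2, 29.1 and 30.6 FPKM in sh-Ptbp1-7d, a log2 fold change of -0.88 (SE 0.13, adjusted p 0.000314). TUBB2B read 23.0, 23.6 and 35.4 FPKM and then 15.1, 15.9 and 18.2 FPKM, a log2 fold change of -0.71 (SE 0.16, adjusted p 0.00332). Both were highest in sh-Ptbp1-3d replicate 3, the library with the neuronal transcripts, whose part in the result was not tested. Without that library the log2 fold changes were -0.77 for TUBB2A (adjusted p 0.00249) and -0.51 for TUBB2B (adjusted p 0.00686), both past the FDR. TUBB2B missed the FDR without sh-Ptbp1-7d replicate 1 (adjusted p 0.0162) or replicate 2 (adjusted p 0.0143). TUBB2A and TUBB2B summed to 75.2, 72.4 and 99.5 FPKM at 3 days and to 44.2, 45.0 and 48.8 FPKM at 7 days.

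The neuron-enriched and the broadly expressed isotypes did not separate. The 5 neuron-enriched genes had a median log2 fold change of -1.26 and ranged from -1.66 to -0.71. The 5 broadly expressed genes had a median of -1.21 and ranged from -1.46 to -1.01.

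The second comparison asked what 3 days of knockdown did at matched time, with the control hairpin collected on the same day. No isotype passed the FDR of 0.05 (limma, adjusted p from 0.583 to 0.982), at which 0.0322% of all entries were called in either direction. At an unadjusted p under 0.05 (limma), 3 of the 10 were past (TUBB2A, TUBB3 and TUBB6). The share of all entries past this unadjusted p was not counted. All 10 log2 fold changes were above 0, from 0.02 for TUBA1C, which was below 0 under TPM and quantile normalization, to 0.31 for TUBB2A. Their median was 0.12 beside 0.01 for all entries.

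TUBB3 and TUBB6 were the isotypes whose libraries did not overlap between these groups, in a comparison where 5.86% of all entries did not overlap in the higher direction. TUBB3 read 237, 250 and 297 FPKM in sh-Luci-3d, below the 3 sh-Ptbp1-3d values. Its log2 fold change was 0.29 (SE 0.093, 95% interval 0.08 to 0.49, adjusted p 0.583). TUBB6 read 50.1, 49.7 and 61.5 FPKM in sh-Luci-3d, and its log2 fold change was 0.25 (95% interval 0.05 to 0.45, adjusted p 0.619).

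The sh-Luci-3d libraries of the beta isotypes were uneven. In replicate 3, 5 of the 6 beta isotypes (all but TUBB) had their highest value of the group. TUBB2A read 37.3, 42.4 and 53.6 FPKM in sh-Luci-3d and TUBB2B 20.8, 21.1 and 24.8 FPKM. Without sh-Luci-3d replicate 3, in a fit whose share of all entries past the FDR was not counted, 3 isotypes passed the FDR. They were TUBB2A at a log2 fold change of 0.46 (adjusted p 0.0415), TUBB3 at 0.38 (adjusted p 0.0148) and TUBB6 at 0.35 (adjusted p 0.0126). Without sh-Ptbp1-3d replicate 3, none passed, and the values of TUBB2A and TUBB2B were 0.20 (adjusted p 0.871) and 0.07 (adjusted p 0.947).

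The other isotypes lay close to the control at 3 days. TUBB4B read 230, 234 and 277 FPKM in sh-Luci-3d and TUBB 1172, 1247 and 1150 FPKM, and both overlapped with sh-Ptbp1-3d. TUBA1A read 1074, 1112 and 963 FPKM in sh-Luci-3d, TUBA1B 844, 912 and 873 FPKM, TUBA1C 261, 278 and 233 FPKM and TUBA4A 2.61, 2.94 and 2.30 FPKM. The 95% intervals of the log2 fold changes of the TUBA1 genes lay between -0.24 and 0.30.

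**Figure D2:**
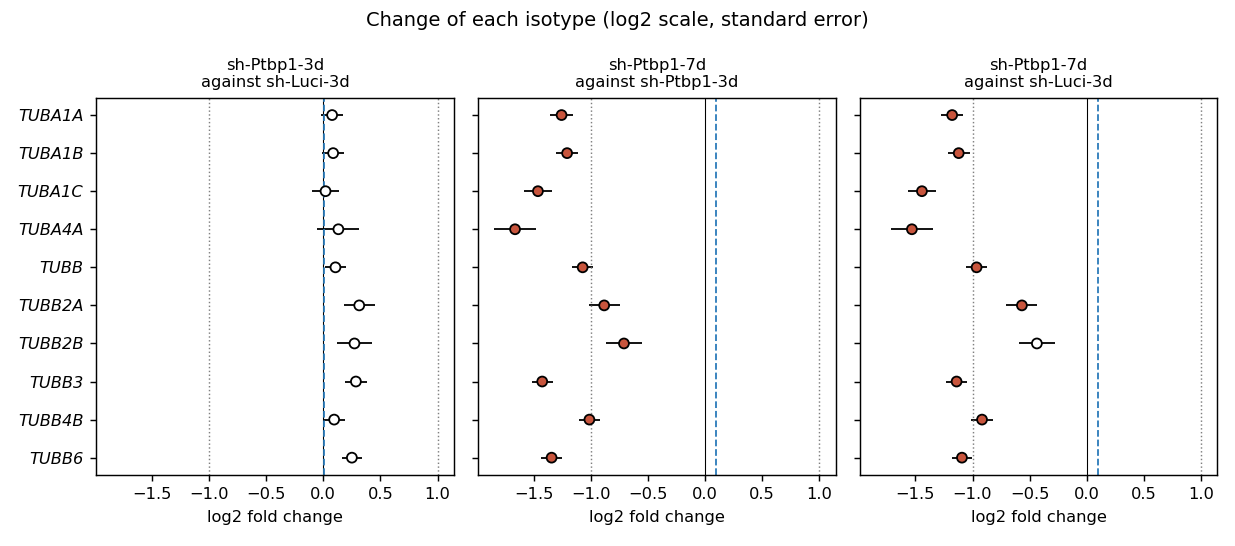
Log2 fold change (horizontal axis) of each isotype in the 3 comparisons, with the standard error from limma; filled points passed the FDR, dotted lines mark 2-fold and the dashed line is the median of all entries. The 7-day comparisons hold 10 and 9 filled points, all below 0, and the 3-day comparison holds none.

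Set against the control hairpin, sh-Ptbp1-7d was lower for 9 of the 10 isotypes past the FDR of 0.01, where 15% of all entries were lower, and for 6 also past 2-fold, where 5.68% of all entries were. This comparison shares the sh-Ptbp1-7d libraries with the first. The log2 fold changes were -1.18 for TUBA1A, -1.12 for TUBA1B, -1.44 for TUBA1C and -1.53 for TUBA4A. Among the beta isotypes they were -0.96 for TUBB, -0.57 for TUBB2A, -1.14 for TUBB3, -0.92 for TUBB4B and -1.09 for TUBB6, with adjusted p from 3.45e-06 to 0.00505. TUBB2A missed the FDR without sh-Luci-3d replicate 2 (adjusted p 0.0113) or without any 1 of the sh-Ptbp1-7d libraries (adjusted p from 0.0133 to 0.0198). TUBB2B did not pass, with -0.44 (SE 0.16, adjusted p 0.0381). All 10 had no overlap between the libraries, against 23.1% of all entries in the lower direction. Without sh-Ptbp1-3d replicate 3, a library that enters this comparison only through the common estimate of spread, TUBB2B had an adjusted p of 0.00720 and passed.

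The order of the levels changed little. FPKM is per length of transcript, so levels of different genes can be compared, within the limit of shared reads. The order of TUBB2A and TUBB2B, and that of the TUBA1 genes, is uncertain for this reason. In every group TUBB was first, TUBA1A and then TUBA1B followed, TUBB2B was ranked 9 and TUBA4A was last. In sh-Luci-3d, TUBB3 (261 ± 31.4 FPKM, SD, n = 3), TUBA1C (257 ± 22.6) and TUBB4B (247 ± 25.8) followed the leading 3 and overlapped with their neighbours in the order, as did TUBB6 and TUBB2A. In sh-Ptbp1-3d, TUBB3 (317 ± 4.57 FPKM) stood above TUBB4B (263 ± 16.5) without overlap. In sh-Ptbp1-7d, TUBB4B (131 ± 7.55 FPKM) came before TUBB3 (118 ± 7.98), with overlapping libraries, and TUBB2A (29.6 ± 0.857) stood above TUBB6 (25.1 ± 1.13) without overlap. The libraries of TUBA1A and TUBA1B overlapped in this last group.

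Shares within the alpha or the beta isotypes are the same under any scaling that multiplies a whole library by 1 factor. Since the smallest p an exact two-sided permutation of 3 against 3 libraries allows is 0.1, shares are given as values with their overlap. TUBA1A made up 48.0 ± 1.38% of the summed alpha FPKM (SD, n = 3) in sh-Luci-3d, 48.1 ± 1.88% in sh-Ptbp1-3d and 48.2 ± 0.934% in sh-Ptbp1-7d. TUBA1B held 40.1 ± 1.79%, 40.4 ± 1.11% and 41.9 ± 0.516%. The share of TUBA1C was 11.8 ± 0.436%, 11.3 ± 0.776% and 9.83 ± 0.490%, and each sh-Ptbp1-7d library lay below the 6 others. TUBA4A held 0.119%, 0.125% and 0.0876%, also without overlap at 7 days.

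The beta isotypes kept TUBB in the lead, at 65.5 ± 3.26%, 63.8 ± 0.801% and 65.6 ± 1.12% of the summed beta FPKM. On the deposited scale, TUBB3 was the isotype of the beta set whose share was lower at 7 days than in both other groups without overlap. Its share was 13.6, 13.6 and 15.9% in the sh-Luci-3d libraries, 15.6, 15.7 and 16.1% in sh-Ptbp1-3d and 13.2, 12.5 and 12.4% in sh-Ptbp1-7d. The share of TUBB2A was 2.44 ± 0.391%, 2.75 ± 0.471% and 3.19 ± 0.172%, and that of TUBB2B 1.22 ± 0.0977%, 1.37 ± 0.390% and 1.76 ± 0.0392%. For both, the 7-day libraries lay above those of sh-Luci-3d and overlapped with sh-Ptbp1-3d, where replicate 3 read 3.29% and 1.82%. Without this library the sh-Ptbp1-3d means were 2.48% for TUBB2A and 1.14% for TUBB2B. TUBB4B held 13.6 ± 1.13%, 13.1 ± 0.454% and 14.0 ± 0.370%, and TUBB6 2.95 ± 0.314%, 3.17 ± 0.109% and 2.71 ± 0.330%. Quantile normalization, which reshapes the values within a library, was applied to the shares after the data were seen. On that scale TUBB held 69.8 ± 0.201% at 7 days, above all other libraries. The TUBB3 share was 11.2 ± 0.275% at 7 days and again below all others. There the shares of TUBB4B (12.6 ± 0.205%) and TUBB6 (2.26 ± 0.189%) at 7 days were below all others as well. Those of TUBB2A and TUBB2B at 7 days overlapped with both other groups.

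**Figure D3:**
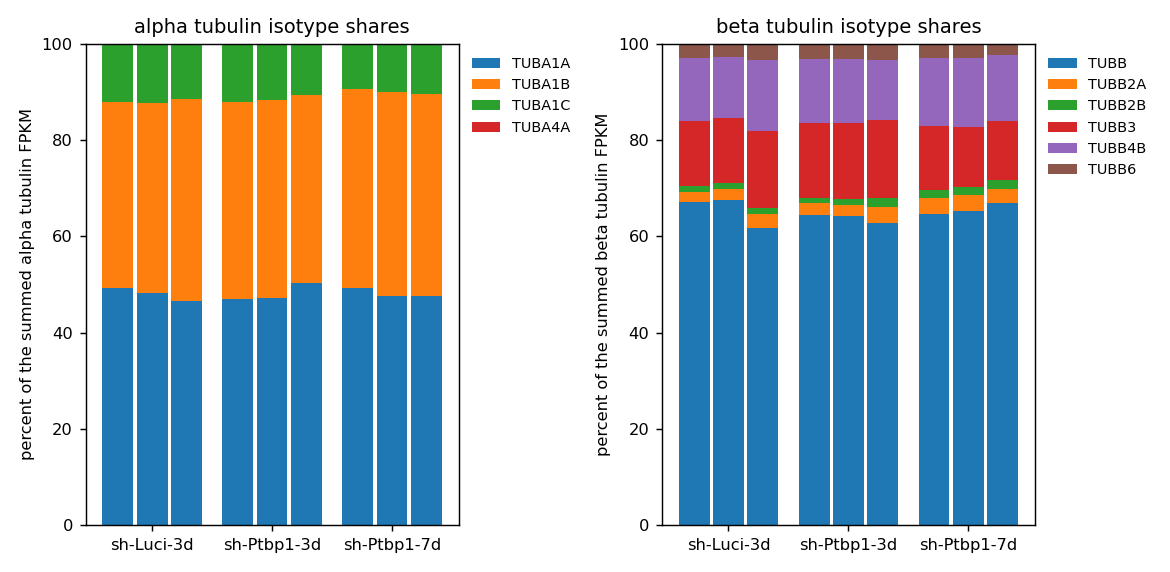
Share of each isotype in the summed FPKM of the alpha isotypes (left) and of the beta isotypes (right), in percent, with 1 stacked bar per library. Group means of TUBA1A run from 48.0 to 48.2% of the alpha sum and those of TUBB from 63.8 to 65.6% of the beta sum, and TUBB3 has a mean of 12.7% in sh-Ptbp1-7d.

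On the deposited scale the ratio of beta to alpha transcripts rose above the range of the other groups at 7 days, which it did not do under quantile normalization. The alpha isotypes summed to 2182, 2306 and 2071 FPKM under the control hairpin, to 2332, 2322 and 2246 FPKM at 3 days of knockdown and to 899, 905 and 1092 FPKM at 7 days. The beta isotypes summed to 1748, 1845 and 1863 FPKM, then to 2072, 2001 and 1948 FPKM, and finally to 878, 893 and 1022 FPKM. The ratio of beta to alpha was 0.834 ± 0.0572 (SD, n = 3), 0.873 ± 0.0141 and 0.967 ± 0.0275, and the sh-Ptbp1-7d libraries lay above all others. After quantile normalization, added once the data had been seen, the ratio was 0.883 ± 0.0903, 0.917 ± 0.0213 and 0.902 ± 0.0377, and all groups overlapped. The library sh-Ptbp1-7d replicate 3 was the highest of its group for 9 of the 10 isotypes, all but TUBB6.

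Many other abundant transcripts fell over the same days and fewer rose. Together, the 10 isotypes made up 1.02 ± 0.0457% of all FPKM in sh-Luci-3d, 1.08 ± 0.0122% in sh-Ptbp1-3d and 0.510 ± 0.0412% in sh-Ptbp1-7d. The mean over all 9 libraries was 100 FPKM or more for 534 entries, a limit chosen after the data were seen. Most of these libraries were collected at 3 days, so the limit favours entries that were high at 3 days. Of these, 50.7% were lower past the FDR from 3 to 7 days of knockdown and 18% were also past 2-fold, while 86 of the 534 were higher past the FDR, with a median log2 fold change of -0.44. GAPDH, the glycolytic enzyme used as a loading reference, fell by 1.11 on the log2 scale (adjusted p 9.50e-06), ACTB, beta actin, fell by 0.84 (adjusted p 7.98e-05), and ACTG1, gamma actin, fell by 0.48 (adjusted p 0.000759). The ratio of the summed isotypes to ACTB was 1.58 ± 0.0660 in sh-Luci-3d, 1.66 ± 0.152 in sh-Ptbp1-3d and 1.30 ± 0.0194 in sh-Ptbp1-7d, where it was below all other libraries. The ratio to GAPDH was 0.859 ± 0.0539, 0.924 ± 0.0112 and 0.875 ± 0.0258, and sh-Ptbp1-7d overlapped with sh-Luci-3d. Per unit of GAPDH, TUBB3 read 0.0558 ± 0.00438 in sh-Luci-3d, 0.0680 ± 0.00183 in sh-Ptbp1-3d and 0.0546 ± 0.00284 in sh-Ptbp1-7d, where the first and the last overlapped.

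**Figure D4:**
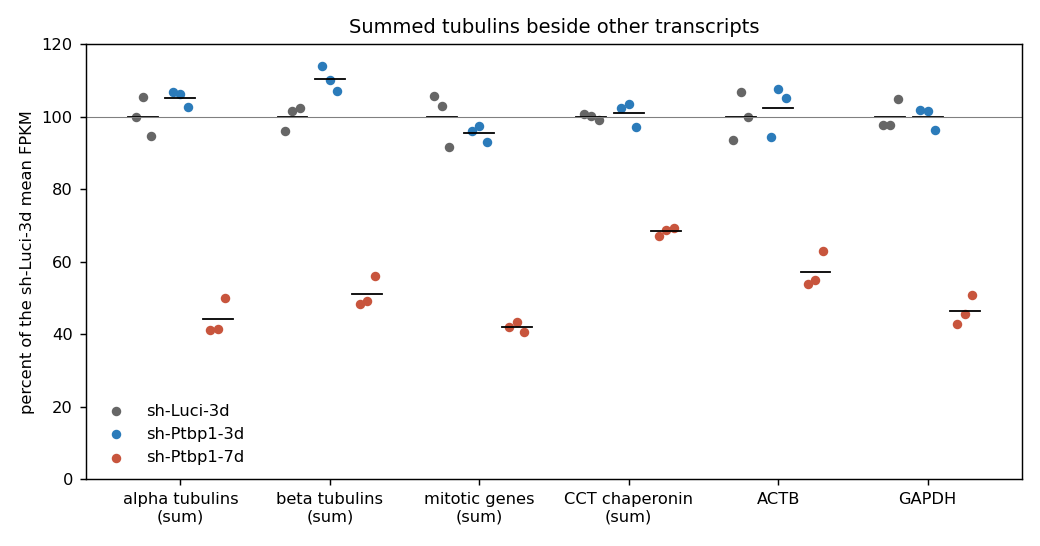
Summed alpha isotypes, summed beta isotypes, summed mitotic genes, summed CCT subunits, ACTB and GAPDH in each library as a percentage of the sh-Luci-3d mean; points are libraries, black lines group means and the grey line 100%. At 7 days the alpha isotypes averaged 44.1%, the beta isotypes 51.2%, the mitotic genes 42.0%, the CCT subunits 68.4%, ACTB 57.3% and GAPDH 46.4%.

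Genes that fold tubulin were examined as a list. New alpha and beta chains reach the CCT chaperonin with the help of prefoldin and are assembled into dimers by the tubulin cofactors. All 8 CCT subunits fell from 3 to 7 days past the FDR of 0.01 and none past 2-fold. At this FDR 15.5% of all entries were lower, and 50.7% of those with a mean of at least 100 FPKM. The median of their log2 fold changes was -0.59. The subunits with the largest changes were CCT7 at -0.85, CCT5 at -0.83 and CCT2 at -0.69 on the log2 scale. Of 6 prefoldin subunits none passed. Of 7 cofactor genes, 2 fell and 5 did not pass, the former being TBCB, which acts on alpha tubulin, at -0.82 (adjusted p 0.000103) and ARL2, a small GTPase of the dimer assembly complex, at -0.72 (adjusted p 0.00168).

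None of the 3 genes of tubulin autoregulation passed. TTC5 was at 2.60, 3.42 and 3.35 FPKM as group means, the control first and 7 days last, with a log2 fold change of -0.03 between the last 2 (adjusted p 0.886). SCAPER and CNOT11, which link TTC5 to the deadenylase complex, had values of 0.57 (adjusted p 0.0267) and -0.08 (adjusted p 0.436). These are transcript levels, and the activity of the pathway was not measured.

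Enzymes that modify tubulin showed no common direction. Of all entries tested 20.3% were higher past the FDR at 7 days and 15.5% lower. Of 4 genes of detyrosination and tyrosination, 1 fell, TTL, the ligase that puts tyrosine back on the alpha tail, at -0.67 (adjusted p 0.000544). Of 9 tested polyglutamylases and partners, of 13 listed, TTLL1 rose by 0.70 (adjusted p 0.00145), TPGS2 fell by 0.79 (adjusted p 2.89e-05) and TTLL7, which acts on beta tubulin in neurons, fell by 0.72 (adjusted p 0.00334), all on the log2 scale, and 6 did not pass. None of the 4 tested deglutamylases, of 6 listed, none of the 3 genes of acetylation and deacetylation and not the 1 polyglycylase tested of 3 listed passed.

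Other tubulin genes were mostly rare. Of 9 further alpha and beta genes 4 passed the filter on low values, and TUBB4A, a beta tubulin of neurons and oligodendrocytes, was the highest of them at means of 2.79, 3.57 and 2.97 FPKM, with a log2 fold change of -0.27 from 3 to 7 days (adjusted p 0.279). TUBA8, named after its values were seen, rose by 1.90 on the log2 scale (adjusted p 0.000131) from 0.200 to 1.01 FPKM. Of the gamma, delta and epsilon tubulins, TUBG1, the gamma tubulin that nucleates microtubules at the centrosome, fell from 90.3 to 49.5 FPKM, a log2 fold change of -0.86 (adjusted p 2.18e-05). TUBG2 fell by 0.35 (adjusted p 0.00531). TUBE1, an epsilon tubulin of the centriole, rose by 0.88 (adjusted p 0.000112).

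The stathmins, which bind tubulin dimers and withhold them from microtubules, moved apart. STMN1, the form of dividing cells, read 208, 244 and 221 FPKM in sh-Ptbp1-3d and 105, 122 and 130 FPKM in sh-Ptbp1-7d, a log2 fold change of -0.92 (adjusted p 4.21e-05). STMN3, a neuronal form, read 8.45, 7.94 and 8.36 FPKM and then 16.9, 16.3 and 15.2 FPKM, a log2 fold change of 0.96 (adjusted p 3.82e-05). STMN2 and STMN4 did not pass.

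**Figure D5:**
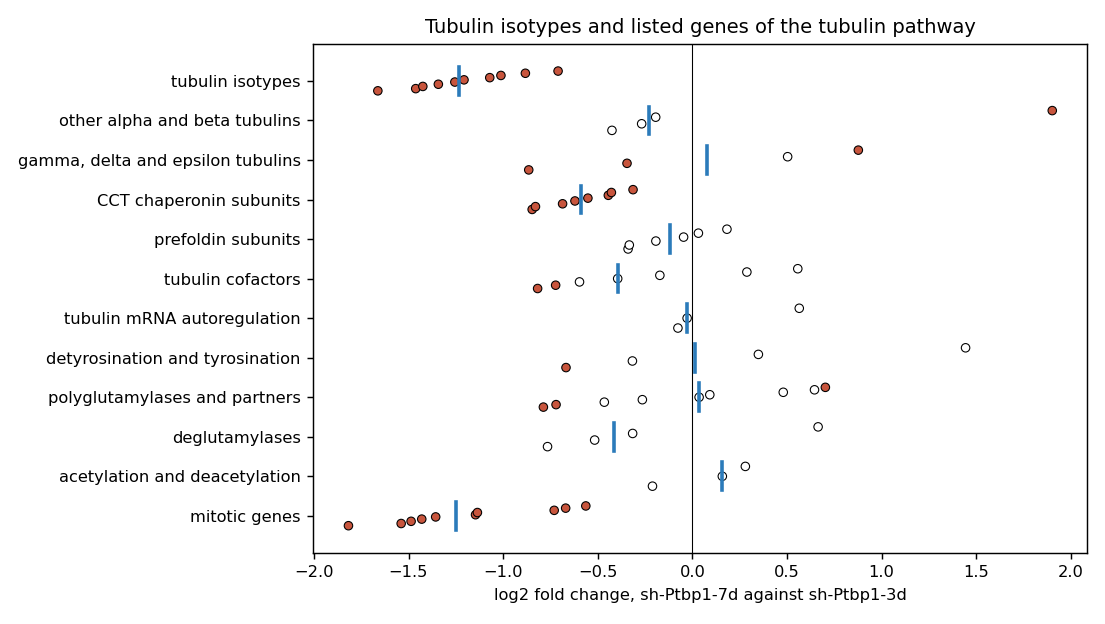
Log2 fold change of sh-Ptbp1-7d against sh-Ptbp1-3d (horizontal axis) for the 10 isotypes and for each listed gene that was tested, by list; filled points passed the FDR of 0.01 and the blue bar is the median of the list. The isotypes have a median of -1.23, the mitotic genes -1.25, the CCT subunits -0.59 and the prefoldin subunits -0.12.

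Genes of dividing cells moved with the isotypes. All 10 listed mitotic genes fell from 3 to 7 days past the FDR, 7 of them past 2-fold, with a median log2 fold change of -1.25. Of all entries tested, 15.5% were lower past the FDR and 5.9% also past 2-fold. The largest falls were in PLK1 (-1.82), CCNB2 (-1.54) and CCNB1 (-1.49), a kinase and the B-type cyclins of mitosis. Their summed FPKM ranged from 345 to 399 in sh-Luci-3d, from 351 to 367 in sh-Ptbp1-3d and from 154 to 164 in sh-Ptbp1-7d. The part of fewer dividing cells in the isotype result was not tested.

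Neuronal markers did not move as a group. From 3 to 7 days, 1 of the 8 tested markers of 10 listed rose, MAP2, a microtubule-associated protein of dendrites, from 18.9, 18.1 and 24.1 FPKM to 41.4, 41.2 and 34.0 FPKM (log2 fold change 0.94, adjusted p 0.00058). Of all entries tested, 20.3% were higher past the FDR and 15.5% lower. NEFL, the light neurofilament chain, fell from 216 to 92.7 FPKM, a log2 fold change of -1.22 (adjusted p 3.65e-07). With NEFM and GAP43, 3 markers fell in all. GAP43, a protein of growth cones, read 0.602, 0.987 and 3.88 FPKM in sh-Ptbp1-3d and 0.0882, 0.334 and 0.187 FPKM in sh-Ptbp1-7d, a log2 fold change of -2.34 (adjusted p 0.00423) and, without sh-Ptbp1-3d replicate 3, of -1.61 (adjusted p 0.00690). SNAP25, a membrane fusion protein of synapses, read 2.05, 2.14 and 3.86 FPKM and then 4.32 ± 0.450 FPKM (SD, n = 3), and missed the FDR at 0.72 (adjusted p 0.0177). Without sh-Ptbp1-3d replicate 3 it rose by 1.01 (adjusted p 0.000986), so that 2 markers rose and 3 fell, in a fit whose share of all entries past the FDR was not counted. Against the control hairpin, SNAP25 at 7 days was higher by 1.69 (adjusted p 9.16e-05). The summed FPKM of the list, which NEFL dominates, ranged from 226 to 248 in sh-Luci-3d, 241 to 249 in sh-Ptbp1-3d and 129 to 147 in sh-Ptbp1-7d.

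The genes with the pattern most like that of TUBB3 were sought among 11339 gene symbols with a mean of at least 1 FPKM, by Pearson's r of log2(FPKM + 0.1) over the 9 libraries. The points share 3 groups of libraries, and the values are given as a description. The nearest 5 were PHLDA2 (r = 0.999), CKB, the brain form of creatine kinase (0.997), TWF2, an actin-binding twinfilin (0.995), ACOT7, an acyl-CoA hydrolase (0.995), and HPCAL1, a neuronal calcium sensor (0.994). Of the other isotypes TUBB6 was the closest, ranked 17 with r = 0.991, then TUBB4B, ranked 29 with 0.990. TUBB2B was the farthest, ranked 1906 with r = 0.846, and TUBB2A was ranked 872 with 0.936.

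Promoters are shown for TUBB3 and TUBB4B, a neuronal and a broadly used isotype, because their upstream sequences differ. Both fell from 3 to 7 days of knockdown, with log2 fold changes of -1.42 and -1.01. RefSeq promoters of GRCh38.p14 (250 bases before to 50 after a start) were found for all 10 genes, in 15 windows. The motifs searched on both strands were CCAAT (the CCAAT box), TTTGAA and TTTAAA (forms of the cell cycle homology region of mitotic genes) and GGGCGG (the GC box). Another window of TUBB3, at chr16:89921675-89921974, is not shown and has no match to any of these motifs. The 250 bases before the start follow with matches in capitals, for TUBB3 at chr16:89923092-89923341 and for TUBB4B at chr9:137241037-137241286, both on the plus strand.
TUBB3: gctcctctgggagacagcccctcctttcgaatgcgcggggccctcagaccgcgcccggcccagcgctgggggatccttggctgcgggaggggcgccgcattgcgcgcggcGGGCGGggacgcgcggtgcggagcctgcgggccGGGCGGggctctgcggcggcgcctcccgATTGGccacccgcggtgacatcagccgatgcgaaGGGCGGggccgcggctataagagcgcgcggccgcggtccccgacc
TUBB4B: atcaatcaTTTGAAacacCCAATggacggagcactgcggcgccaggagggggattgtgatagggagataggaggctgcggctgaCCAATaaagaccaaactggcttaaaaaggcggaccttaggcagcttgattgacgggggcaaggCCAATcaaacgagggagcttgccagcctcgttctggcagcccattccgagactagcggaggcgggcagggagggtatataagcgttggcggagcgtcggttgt
TTTGAA was found in 4 of the 15 windows, for 2 of the 10 isotypes (TUBA1C and TUBB4B). It was in 15.2% of the 35116 windows of all genes. TTTAAA was in none of the 15 and in 12.2% of all windows. CCAAT was found in 9 of the 15, for 7 of the 10 isotypes, and in 34.6% of all windows. GGGCGG was found in 9 of the 15, for 8 of the 10 isotypes, and in 45.0% of all windows. Several isotypes have more than 1 window, and a match is a description of letters, not a site.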

How the data were processed

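RNA-seq was carried out on U251 cells in 9 libraries, 3 per group as labelled. The deposited values are the authors' FPKM, 1 per gene and library, from filtered reads. Their processing notes name HISAT2 and GRCh38, and the counting program is not given in the sources used here. The authors also deposited coordinates of 2363 assembled loci, a table of another kind of value, used here only for overlaps with the isotypes.

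Log2(FPKM + 0.1) of the 15551 entries whose mean reached 0.1 FPKM entered a model of the 3 groups with an intensity trend over all 9 libraries (limma 3.58.1, R 4.3.3). P-values were adjusted by Benjamini-Hochberg. The FDR was 0.05 between the groups of 3 days and 0.01 for comparisons with sh-Ptbp1-7d, and the second rule added a fold change above 2, as in the study. Same-numbered libraries did not deviate together, so no pairing was used. Python 3.11.15 and matplotlib 3.10.9 served for the figures.

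The isotypes and gene lists were chosen with earlier results of these data known. All 10 isotypes are named. Of each list, the text names up to 3 genes past the FDR whose mean reached 1 FPKM, those with the largest change from 3 to 7 days. For TUBB3 the 5 nearest patterns are named. DCX, ELAVL3, ELAVL4, GAP43, NEFM, SNAP25, STMN2, STMN4, AQP4, ALDH1L1, GFAP, S100B, TTC5, SCAPER, CNOT11, TUBB4A and TUBA8 lie outside this rule. Alternatives covered the pseudocount, the filter, the scaling, the trend, the libraries and entries fitted, a replicate block and leaving out each library, and after the data were seen quantile normalization of shares and ratios and the neuronal lists without sh-Ptbp1-3d replicate 3.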

Additional observations from a re-analysis of the deposited data

How the results depend on the processing

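In each comparison 20 alternatives were run, 9 of which left out 1 library. The number of isotypes past the FDR in sh-Ptbp1-3d against sh-Luci-3d ranged from 0 to 3 when single libraries were left out, and was 3 without sh-Luci-3d replicate 3. The share of all entries past the FDR was not counted in these fits or in any other of the 20 alternatives. The number past both thresholds from 3 to 7 days of knockdown was 4 under quantile normalization, in place of 8. TUBA1C in sh-Ptbp1-3d against sh-Luci-3d changed sign under TPM (-0.0018), quantile normalization (-0.022) and without sh-Luci-3d replicate 3 (-0.050) or sh-Ptbp1-3d replicate 1 (-0.028) or 2 (-0.0066), and ranged up to 0.094 with other libraries left out. The cause was not tested. From 3 to 7 days of knockdown, TUBB2B missed the FDR with no filter (adjusted p 0.0227), with no trend (0.0110) and without sh-Ptbp1-7d replicate 1 (0.0162) or 2 (0.0143). TUBB2A in sh-Ptbp1-7d against sh-Luci-3d missed it under 8 of the 20, with adjusted p from 0.00187 to 0.028 over all 20. Under quantile normalization, added for shares and ratios after the data were seen, the ratio of beta to alpha was 0.917 in sh-Ptbp1-3d and 0.902 in sh-Ptbp1-7d, and the TUBB3 share 15.1% and 11.2%, in place of 0.873, 0.967, 15.8% and 12.7%. TPM moved the median log2 fold change of all entries from 0.092 to 0.195 in the same comparison of 3 with 7 days. Depth is unknown, so no counting error can be given for TUBA4A, the rarest isotype.

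Correlations of deviations between same-numbered libraries were at most 0.051, so the numbers were not used as pairs. With a replicate block, 0, 10 and 10 isotypes passed the FDR at 3 days against the control, from 3 to 7 days and at 7 days against the control, where the last was 9 without the block. How many of all entries passed with the block was not counted. The 1 isotype whose call changed was TUBB2B at 7 days against the control, which passed at -0.44 (adjusted p 0.00648).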
